A study of Rattus norvegicus with 4 samples.

Results

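The barcodes described here are the 4624 of 45348 in which over 20% of the unique molecular identifiers (UMIs, each counting 1 captured RNA molecule) came from genes of the mitochondrial genome. They were chosen by their own measured UMI counts, in the 4 deposited single-cell RNA-seq matrices of the rat esophagus as all barcodes with at least 500 UMIs and over 20% of them in the 13 protein-coding genes whose symbols start with Mt-. They are called high-Mt barcodes below, and the other 40724 barcodes with at least 500 UMIs are called low-Mt barcodes.

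Each library was made from the pooled esophagi of 5 male Sprague-Dawley rats aged 6 weeks, whose esophageal region was exposed to X-rays or sham-exposed. The unirradiated library, Gy0_7d, came from rats given 5 fractions of 0 Gy, with tissue taken at day 7. The irradiated libraries came from rats given 1 fraction of 35 Gy and sampled at day 7 (Gy35_7d), from rats given 5 daily fractions of 7 Gy and sampled at day 7 (Gy5x7_7d), and from rats given the same 5 fractions of 7 Gy and sampled at day 14 (Gy5x7_14d). All 4 tissues were kept in a storage solution, digested with collagenase I, DNase I and trypsin, and put through a dead-cell removal kit before capture, so the high-Mt barcodes are those left after that step. With 1 pool per treatment, no test between treatments was possible, and the treatments are compared by their values and counting intervals, which cover counting error only.

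The mitochondrial genome of mammals encodes subunits of the respiratory chain and of ATP synthase, and its transcripts stay inside the organelle. All other proteins of these complexes are made in the cytosol from nuclear genes. In droplet libraries a high mitochondrial share is often used to leave out cells whose membrane has opened and whose cytosolic RNA has leaked, although cells rich in mitochondria also have a high share. The esophageal lining is a stratified epithelium, in which dividing basal keratinocytes sit on a basement membrane and their suprabasal descendants build desmosomes, cross-linked proteins and a keratin network before they are shed.

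High-Mt barcodes made up 687 of 12505 barcodes in Gy0_7d, which is 5.49% (95% exact interval 5.10 to 5.91). Their share was 15.2% in Gy35_7d (1744 of 11488, 14.5 to 15.9) and 16.6% in Gy5x7_7d (1805 of 10887, 15.9 to 17.3). In Gy5x7_14d it was 3.71% (388 of 10468, 3.35 to 4.09), below the unirradiated library. That order turned round when the 24 AY172581 features, other features of the mitochondrial genome outside the rule, were counted too. The shares were then 9.32% in Gy5x7_14d against 6.40% in Gy0_7d. Over all libraries the band from 20 to 21% held 154 barcodes with a median of 1051.5 UMIs outside the mitochondrial genome, and the band just below it, from 19 to 20%, also held 154, with a median of 1204. In Gy5x7_14d the members lay nearer the threshold, with 62.1% of them between 20 and 30%, against 30.4% in Gy0_7d, 17.5% in Gy35_7d and 13.2% in Gy5x7_7d. Over 50% lay 2487 of the 4624 members, or 53.8%, but their spread differed between libraries: 266 were in Gy0_7d, 941 in Gy35_7d, 1273 in Gy5x7_7d and 7 in Gy5x7_14d. The median mitochondrial share of the members was 42.4% in Gy0_7d, 51.9% in Gy35_7d, 60.8% in Gy5x7_7d and 27.4% in Gy5x7_14d.

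**Figure D1:**
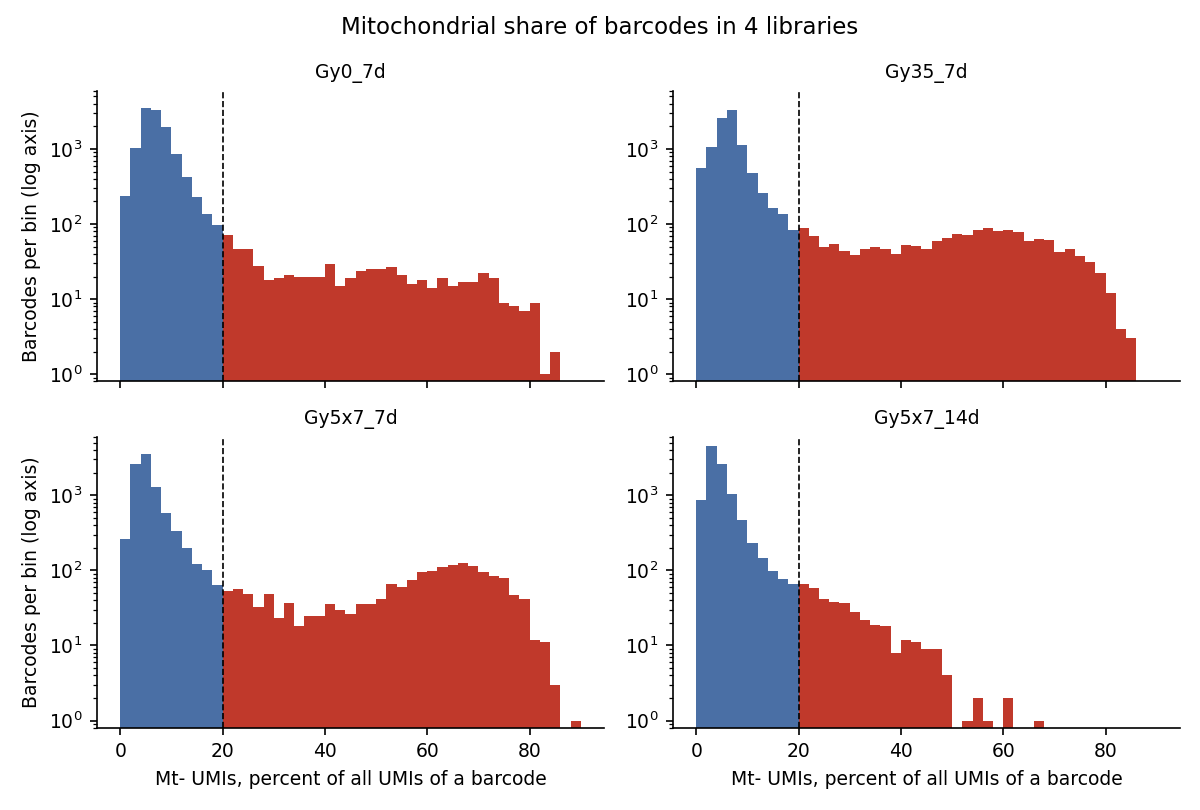
Distribution of the mitochondrial share in each library, with the percent of a barcode's UMIs in Mt- genes on the x axis, the number of barcodes per bin on a log y axis, high-Mt barcodes in red, low-Mt barcodes in blue and the 20% threshold dashed. In Gy5x7_7d 1273 barcodes lie over 50%, against 7 in Gy5x7_14d.

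The rule fixed only the ratio of mitochondrial to all UMIs, so the UMI totals behind it are a description of the choice and were not tested. Taken over all cell classes, the members held fewer nuclear UMIs, that is UMIs outside the mitochondrial genome, than the low-Mt barcodes of every library. They also held more mitochondrial UMIs. The median nuclear UMI count was 926 in high-Mt against 5914 in low-Mt barcodes of Gy0_7d, 981 against 5462.5 in Gy35_7d, 168 against 4743 in Gy5x7_7d and 653 against 5487.5 in Gy5x7_14d. The ratio of these medians lay between 0.0354 in Gy5x7_7d and 0.180 in Gy35_7d. The median count of UMIs in Mt- genes was 1109 in high-Mt against 368.5 in low-Mt barcodes of Gy0_7d, 1538 against 405 in Gy35_7d, 634 against 263 in Gy5x7_7d and 450.5 against 247 in Gy5x7_14d, ratios of 1.82 to 3.80. Among the irradiated libraries sampled at day 7, then, the members of Gy5x7_7d were by far the poorer in nuclear RNA, and 977 of them had under 200 nuclear UMIs, too few to be given a cell class here. Within the epithelium, classed below, high-Mt barcodes did not always hold more UMIs in Mt- genes. Suprabasal medians were 1404.5 in high-Mt against 1439 in low-Mt barcodes of Gy0_7d, 2067 against 1406.5 in Gy35_7d and 674.5 against 398.5 in Gy5x7_7d. Basal medians were 1064 against 1076 in Gy0_7d, 1205.5 against 1250 in Gy35_7d, 378 against 264 in Gy5x7_7d and 761.5 against 627 in Gy5x7_14d.

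The shares of Mt-atp6 and Mt-co2 among the UMIs in Mt- genes, which are the UMIs the rule used, were close in both kinds of barcode. Mt-atp6, which encodes a subunit of the membrane part of ATP synthase, took 20.2% of the UMIs in Mt- genes in high-Mt against 19.5% in low-Mt barcodes of Gy0_7d, 18.8% against 17.2% in Gy35_7d, 18.3% against 16.9% in Gy5x7_7d and 15.8% against 15.7% in Gy5x7_14d. Mt-co2, a subunit of cytochrome c oxidase, took 18.7% in both kinds of Gy0_7d, 18.5% in high-Mt against 18.6% in low-Mt barcodes of Gy35_7d, 19.1% against 19.5% in Gy5x7_7d and 18.5% against 20.1% in Gy5x7_14d. The gaps between the kinds were under 2 percentage points for both genes. Less abundant Mt- genes could differ more for their level. Mt-nd2 took 4.74% in high-Mt against 5.90% in low-Mt barcodes of Gy0_7d, 5.33% against 6.12% in Gy35_7d, 5.13% against 5.87% in Gy5x7_7d and 7.53% against 6.54% in Gy5x7_14d.

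**Figure D2:**
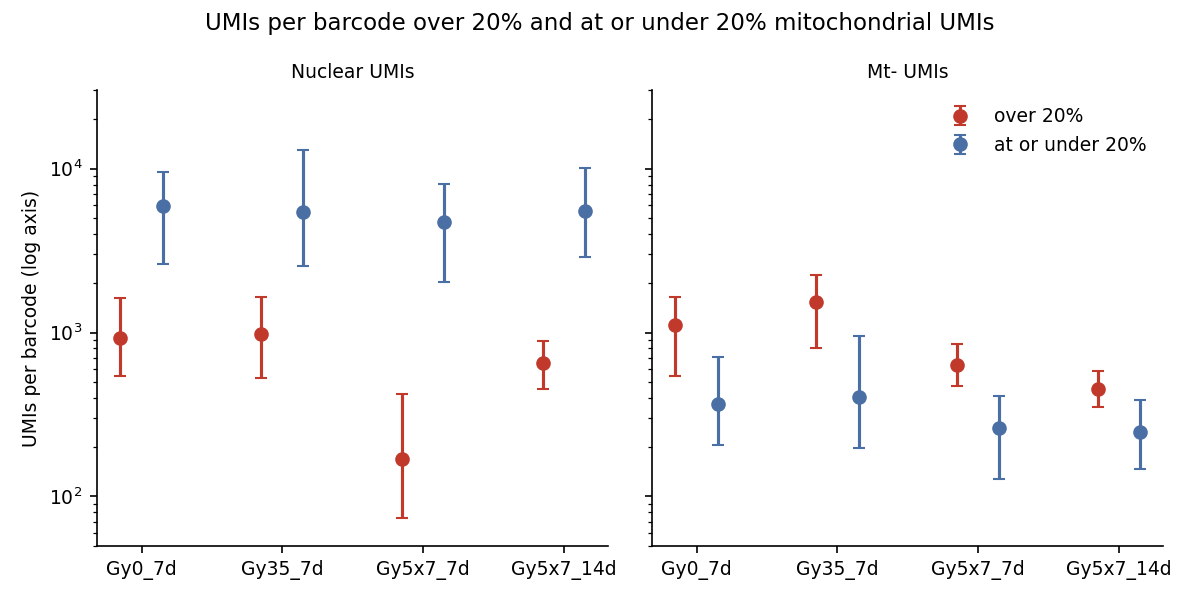
Nuclear UMIs and UMIs in Mt- genes per barcode (log y axis) in high-Mt (red) and low-Mt (blue) barcodes of each library, with points at the medians and bars over the quartiles. The median nuclear UMI count is lower in high-Mt barcodes of all 4 libraries, at 168 against 4743 in Gy5x7_7d.

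The cell classes were assigned on nuclear UMIs alone, by clustering together the barcodes of all libraries with at least 200 nuclear UMIs and naming a cluster from marker genes. Of the 4624 members, 136 were called doublets and 1073 had under 200 nuclear UMIs. The other 3415 were classed, and 2732 of them fell in named classes: 1844 epithelial, 262 mural (smooth muscle and pericytes), 217 macrophage or monocyte, 166 blood endothelial, 100 mast, 58 fibroblast, 31 lymphoid, 19 neutrophil, 16 satellite, 12 lymphatic endothelial and 7 glial. The remaining 683 sat in clusters left unnamed or removed. A second assignment by multinomial likelihood, built from low-Mt barcodes, also called 1632 of the 1844 epithelial members epithelial, or 88.5%, against an agreement of 99.1% over the low-Mt barcodes of named classes.

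Epithelial cells led the high-Mt barcodes of the day 7 libraries. They made up 59.1% of the classed high-Mt barcodes against 21.2% of the classed low-Mt barcodes of Gy0_7d and 60.7% against 32.0% in Gy35_7d. In Gy5x7_7d the order was the other way, with 56.2% of high-Mt against 71.1% of low-Mt barcodes. In Gy5x7_14d, where the epithelium was scarce, it gave 10.7% of high-Mt against 3.68% of low-Mt barcodes, and macrophages or monocytes (32.1% against 10.6%) and mural cells (29.9% against 10.3%) led.

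Fibroblasts, which make the connective tissue, stood at the other end in Gy0_7d, Gy35_7d and Gy5x7_14d. They were 1.92% of high-Mt against 31.3% of low-Mt barcodes in Gy0_7d, 2.49% against 7.00% in Gy35_7d and 0.548% against 32.4% in Gy5x7_14d. Only 12 of 3564 fibroblasts of Gy0_7d and 2 of 3127 of Gy5x7_14d passed 20%. Blood endothelial cells were also a smaller share of high-Mt than of low-Mt barcodes in all 4 libraries, at 3.83% against 11.5% in Gy0_7d, 3.42% against 7.88% in Gy35_7d, 4.53% against 13.1% in Gy5x7_7d and 13.7% against 24.5% in Gy5x7_14d.

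The same data read the other way give the share of each class that passed 20%. Of epithelial barcodes 13.4% did so in Gy0_7d (95% exact interval 12.1 to 14.7), 24.4% in Gy35_7d (23.1 to 25.8), 6.80% in Gy5x7_7d (6.21 to 7.43) and 9.92% in Gy5x7_14d (7.15 to 13.3). With fewer, broader clusters (resolution 0.5) the cluster that held most suprabasal members was merged into one led partly by haemoglobins and left unnamed, and the shares were 3.96% in Gy0_7d, 9.17% in Gy35_7d and 4.44% in Gy5x7_7d; by multinomial likelihood the share of Gy5x7_14d was 2.31%. The suprabasal and basal epithelium differed where the shares were high. Among suprabasal barcodes 21.7% passed 20% in Gy0_7d, 57.6% in Gy35_7d, 7.06% in Gy5x7_7d and 12.5% (9 of 72) in Gy5x7_14d. Among basal barcodes the shares were 4.72% in Gy0_7d, 9.43% in Gy35_7d, 6.52% in Gy5x7_7d and 9.35% in Gy5x7_14d. In Gy35_7d most suprabasal barcodes (716 of 1244) were high-Mt, while the basal share stayed under 10%. Suprabasal and basal shares lay close in Gy5x7_7d, where the many members under 200 nuclear UMIs were not classed and are missing from these counts. At resolution 0.5, with that cluster left unnamed, the suprabasal share lay below the basal share in the day 7 libraries. Suprabasal high-Mt and low-Mt barcodes were then 50 and 1943 in Gy0_7d, 42 and 502 in Gy35_7d, and 75 and 3119 in Gy5x7_7d. Basal ones were 48 and 432, 260 and 2490, and 209 and 2998. Of mast cells 4 of 20 were high-Mt in Gy0_7d, 32.7% (81 of 248) in Gy35_7d, 23.7% (9 of 38) in Gy5x7_7d and 8.45% (6 of 71) in Gy5x7_14d, in a cluster of whose barcodes 29.7% were called doublets.

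The class makeup changed along the mitochondrial share. Over all libraries, with doublets included, the epithelial share of classed members was 34.1% in the band from 20 to 30%, 55.2% from 30 to 50% and 62.0% over 50%. Mural cells gave 14.1%, 10.3% and 0.762% in the same bands, blood endothelial cells 11.1%, 4.94% and 0.900%, and macrophages or monocytes 16.1%, 5.75% and 0.277%. Few mural, endothelial or macrophage members thus lay over 50%. Gy5x7_7d was an exception for the epithelium, with 71.8%, 65.8% and 34.6% over the same bands. In Gy5x7_14d the mural share was 25% in the band from 20 to 30% and 36.0% from 30 to 50%, and 5 classed members lay over 50%.

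**Figure D3:**
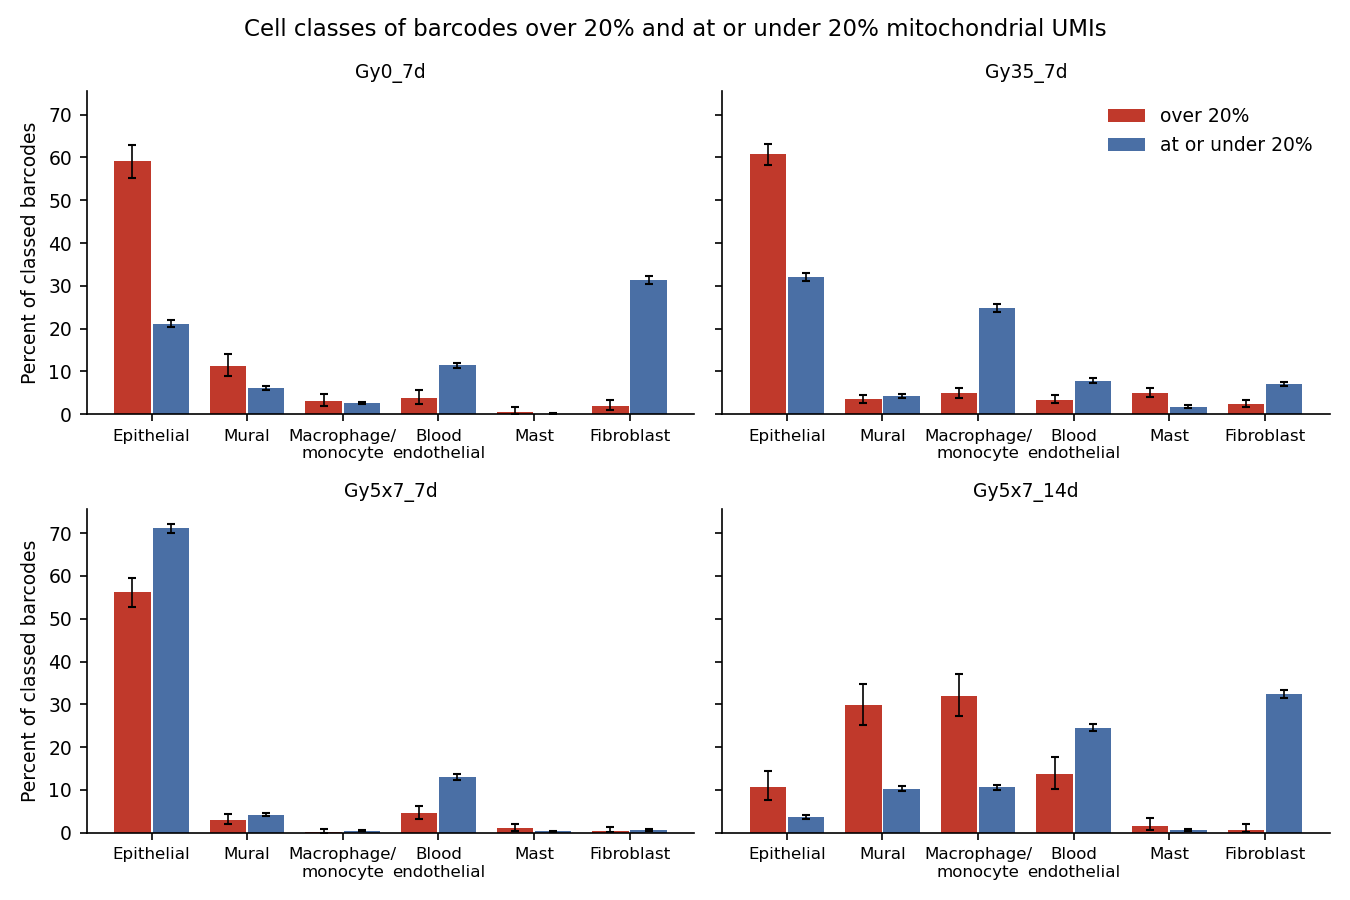
Share of selected cell classes (x axis) among classed barcodes of each library (percent, y axis), high-Mt in red and low-Mt in blue, with 95% exact intervals. Epithelial barcodes are 59.1% of high-Mt against 21.2% of low-Mt barcodes in Gy0_7d, while fibroblasts are 1.92% against 31.3%.

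Most suprabasal members sat in a cluster of their own. A cluster of 1400 barcodes, of which 1137 were high-Mt, held 89.9% of the suprabasal high-Mt but 2.80% of the suprabasal low-Mt barcodes of Gy0_7d, 94.3% against 7.01% in Gy35_7d and 70.0% against 5.56% in Gy5x7_7d. Its leading genes were Prom2, Cdh1, Evpl, Dsc2, Duox1, Nectin4, Pla2g4e, Dsg1, Plxna1 and Nbeal2, among them the adhesion genes Cdh1 (E-cadherin), Dsc2 and Dsg1 (desmosomal cadherins) and Evpl (envoplakin, a precursor of the cornified envelope). The suprabasal low-Mt barcodes lay mostly in other clusters, 1 of which held 87.7% of them in Gy0_7d, another 54.0% in Gy35_7d and another 58.8% in Gy5x7_7d. For basal members this depended on the library. One basal cluster held 51.9% of the basal high-Mt against 3.08% of the basal low-Mt barcodes of Gy35_7d, 26.6% against 0.464% in Gy0_7d and 26.7% against 2.75% in Gy5x7_14d, but 83.3% against 73.9% in Gy5x7_7d. In Gy5x7_14d another cluster held 56.7% of basal high-Mt and 70.8% of basal low-Mt barcodes.

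The largest unnamed cluster held 1095 barcodes, 592 of them high-Mt, and its leading genes mixed haemoglobins with epithelial genes. Among its singlets haemoglobins took 0.027% of nuclear UMIs in high-Mt against 1.646% in low-Mt barcodes of Gy0_7d and 0.0012% against 0.105% in Gy5x7_7d. They had 9 UMIs in high-Mt against 10 in low-Mt barcodes of Gy35_7d and 5 against 3 in Gy5x7_14d, so as a share of nuclear UMIs they were higher in the high-Mt barcodes there, at 0.00769% against 0.00166% in Gy35_7d and 0.0523% against 0.000814% in Gy5x7_14d. Its high-Mt barcodes carried the suprabasal markers, such as the keratins Krt4 and Krt13, at 2.34% of nuclear UMIs in Gy0_7d, 2.33% in Gy35_7d, 1.71% in Gy5x7_7d and 0.345% in Gy5x7_14d. The classed epithelial members had 3.04%, 1.86%, 1.76% and 0.733% in the same libraries. This cluster took 8.31% of the classed members of Gy0_7d, 13.9% of Gy35_7d, 30.5% of Gy5x7_7d and 7.67% of Gy5x7_14d. The 977 members of Gy5x7_7d that were too shallow for a class were read as 1 pool, and suprabasal markers made up 1.63% and basal markers 0.515% of their nuclear UMIs. Fibroblast markers were at 0.0990%, blood endothelial markers at 0.0284% and macrophage markers at 0.00910% there, with 6 of the 10 macrophage markers at 0.

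Within a class, high-Mt and low-Mt barcodes of the same library were summed and compared with edgeR's quasi-likelihood test, keeping the library as a block, so each library gives 1 pair. All p-values below are from that test, adjusted over all genes tested by the Benjamini-Hochberg method, and are called at 0.05. Both sums of a pair come from the same animals and the same droplet run, and the classes were themselves drawn from the expression of these genes. The suprabasal fit used 3 libraries, since Gy5x7_14d had 9 suprabasal members, and the basal, mural and blood endothelial fits used all 4. Fold changes are on the log2 scale, high-Mt over low-Mt, relative to the bulk of genes after TMM scaling. The scaling matters here. Without scaling factors, plain shares of nuclear UMIs, given below as CPM (UMIs per 1e6 nuclear UMIs), put the median of all tested genes 1.05 above 0 in the suprabasal class, against 0.01 with them. The fold changes of a list are therefore given both ways, and a gene called in the same direction with and without scaling factors is said to hold both ways.

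Suprabasal keratinocytes differed over about as many genes as not: 5156 of 10373 tested genes were called (49.7%), 2452 higher (23.6%) and 2704 lower (26.1%) in high-Mt barcodes. Without scaling factors the split was 5894 higher and 809 lower. The basal class had 3160 of 8765 genes called (36.1%), 1457 higher (16.6%) and 1703 lower (19.4%), against 4094 and 498 without scaling factors. All 2452 higher suprabasal and all 1457 higher basal genes were also called higher without scaling factors, since leaving these out raised the values of both classes. Holding both ways is therefore a check on lower epithelial genes only, of which 809 and 498 held.

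Ribosomal protein genes, which encode the protein part of the ribosome and are among the most abundant mRNAs of the cytosol, were lower in the high-Mt barcodes of every class tested. The median share of nuclear UMIs per barcode in these 90 genes was 7.81% in high-Mt against 29.4% in low-Mt suprabasal barcodes of Gy0_7d, 12.6% against 30.5% in Gy35_7d and 10.5% against 35.2% in Gy5x7_7d. In basal barcodes it was 11.8% against 33.4% in Gy0_7d, 13.2% against 32.9% in Gy35_7d, 14.4% against 39.5% in Gy5x7_7d and 10.2% against 36.0% in Gy5x7_14d. Mural barcodes, in which the genes take less of the RNA to begin with, had 5.73% against 9.99% in Gy0_7d, 6.36% against 14.8% in Gy35_7d, 7.64% against 14.1% in Gy5x7_7d and 5.84% against 10.1% in Gy5x7_14d. The direction was the same in each of these pairs.

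Of 77 ribosomal protein genes tested in the suprabasal class 76 were called lower, with a median log2 fold change of -2.35, and none higher. In the basal class 74 of 76 were called lower (median -1.88), in the mural class 63 of 71 (median -0.86) and in the blood endothelial class 63 of 73 (median -0.89). Without scaling factors the medians were -1.30, -1.02, -0.66 and -0.49 in the same order, and 70, 68, 55 and 4 genes were called lower both ways. Rpl12, of the large subunit, measured 762 CPM in high-Mt against 2861 CPM in low-Mt suprabasal barcodes of Gy0_7d, 1247 against 2827 in Gy35_7d and 733 against 3237 in Gy5x7_7d. It was lower by a log2 fold change of -2.78 (SE 0.26, adjusted p = 1.06e-13). Rps2, of the small subunit, measured 4500 CPM in high-Mt against 9871 CPM in low-Mt basal barcodes of Gy0_7d, 4706 against 10548 in Gy35_7d, 2981 against 10791 in Gy5x7_7d and 2253 against 10333 in Gy5x7_14d (-2.43, SE 0.42, adjusted p = 2.75e-07).

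Finer bands of the mitochondrial share showed where the ribosomal share dropped. In Gy0_7d the summed suprabasal barcodes had 21.5% of nuclear UMIs in ribosomal protein genes in the band from 0 to 5% mitochondrial UMIs, 28.9% from 5 to 10%, 26.3% from 10 to 20%, 12.6% from 20 to 30%, 7.38% from 30 to 50% and 8.23% over 50%. In Gy5x7_7d the bands held 33.9%, 34.0%, 25.5%, 14.3%, 10.3% and 12.8%. In the basal class of Gy5x7_7d they held 41.3%, 39.0%, 28.2%, 21.0% and 15.2% up to the band from 30 to 50%. In these 3 series every band over 20% lay below every band at or under 20%.

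**Figure D4:**
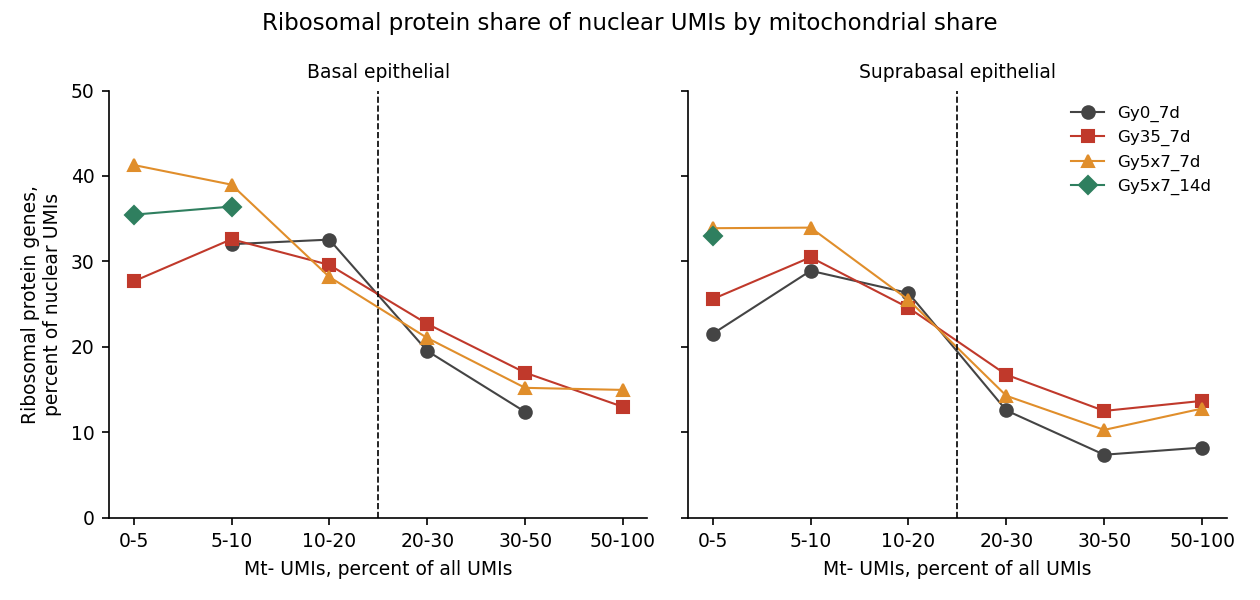
Ribosomal protein genes as percent of nuclear UMIs (y axis) in summed barcodes of 6 bands of mitochondrial share (x axis), for the basal and suprabasal epithelium of each library, leaving out bands with under 20 barcodes. The suprabasal line of Gy5x7_7d stands at 33.9% in the lowest band and 12.8% in the highest.

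The nuclear genes of oxidative phosphorylation were lower in the same barcodes in which the mitochondrial genes of these complexes made up the larger share. They encode the subunits of respiratory complexes and ATP synthase that are imported from the cytosol. In the suprabasal class 69 of 70 were called lower (median -1.87, or -0.83 without scaling factors, 47 lower both ways). In the basal class 68 of 70 were (median -1.52, or -0.68, 42 both ways), in the mural class 41 of 69 (median -0.80, or -0.62, 33 both ways) and in the blood endothelial class 28 of 70 (median -0.85, or -0.46, none both ways). None of them was called higher in any of these fits. Cox5a, a subunit of cytochrome c oxidase, measured 255 CPM in high-Mt against 686 CPM in low-Mt suprabasal barcodes of Gy0_7d, 411 against 820 in Gy35_7d and 162 against 713 in Gy5x7_7d. Its log2 fold change was -2.51 (SE 0.24, adjusted p = 3.62e-13). Cox7c, of the same complex, measured 261 CPM in high-Mt against 490 CPM in low-Mt basal barcodes of Gy0_7d, 322 against 779 in Gy35_7d, 336 against 880 in Gy5x7_7d and 282 against 645 in Gy5x7_14d (-2.03, SE 0.29, adjusted p = 4.16e-10). The groups did not overlap for either gene, but both were named for their large fold changes, so this separation was partly fixed by the choice.

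Genes of the cytoskeleton and of abundant cytosolic proteins were lower as well, in 20 of 23 tested genes in the suprabasal class, with 1 higher, 18 of 23 in the basal class, 15 of 23 in the mural class and 17 of 23 in the blood endothelial class. The median log2 fold changes were -1.41, -1.25, -0.78 and -0.97 in that order, or -0.37, -0.42, -0.62 and -0.57 without scaling factors. Actb, the cytoplasmic actin, measured 1023 CPM in high-Mt against 2966 CPM in low-Mt suprabasal barcodes of Gy0_7d, 630 against 1618 in Gy35_7d and 429 against 780 in Gy5x7_7d (-2.31, SE 0.24, adjusted p = 2.7e-12). It was also lower in basal (-2.03), mural (-1.52) and blood endothelial (-1.66) high-Mt barcodes.

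The NRF2 and glutathione list, genes that keep thiols reduced and detoxify peroxides, was lower in 16 of 22 tested genes in the suprabasal class and 15 of 22 in the basal class, with 2 higher in each, and 9 and 8 of the lower ones held both ways. Over all genes tested 26.1% were lower and 23.6% higher in the suprabasal class, and 19.4% and 16.6% in the basal class. Txn1 (thioredoxin) measured 703 CPM in high-Mt against 2086 CPM in low-Mt suprabasal barcodes of Gy0_7d, 1212 against 3221 in Gy35_7d and 587 against 2486 in Gy5x7_7d. It was lower by a log2 fold change of -2.72 (SE 0.25, adjusted p = 1.06e-13) there and of -2.22 (SE 0.32, adjusted p = 9.22e-10) in the basal class. Prdx1 (peroxiredoxin 1) was lower by -2.43 in the suprabasal class, and Gpx2, a glutathione peroxidase of epithelia, by -1.93 in the basal class. For glycolysis, 12 of 16 tested genes were lower and 2 higher in the suprabasal class, and 10 of 16 lower and 2 higher in the basal class, with Gapdh at -2.06 and -1.94. Without scaling factors 4 of these genes in each class were still called lower.

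Genes of secretory and membrane protein synthesis gave calls in both directions. Of 23 tested genes for entry into the endoplasmic reticulum and folding there, 8 were called higher and 8 lower in the suprabasal class (5 of the lower both ways). In the basal class 4 were higher and 7 lower (3 of the lower both ways). The shares over all genes tested were 23.6% higher and 26.1% lower in the suprabasal class, and 16.6% and 19.4% in the basal class. The summed plain level of the list was 10990 CPM in high-Mt against 5113 in low-Mt suprabasal barcodes of Gy0_7d, 12174 against 5666 in Gy35_7d and 8651 against 4874 in Gy5x7_7d. This rise does not set the list apart, since without scaling factors the median log2 fold change of all suprabasal genes tested was 1.05. The lower ones were led by small subunits of the translocon complex, Sec61b (175 CPM in high-Mt against 454 CPM in low-Mt barcodes of Gy0_7d, 217 against 562 in Gy35_7d, 150 against 548 in Gy5x7_7d; -2.56, SE 0.24, adjusted p = 1.06e-13), Ssr4 (-2.11) and Sec61g (-1.88).

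The genes with the largest positive fold changes in the suprabasal class were Zfp142, a zinc finger protein, Kmt5c, a methyltransferase for histone H4, Prom2, a pentaspan glycoprotein of membrane protrusions, and Abca7, a lipid transporter. Prom2 measured 825 CPM in high-Mt against 41.6 CPM in low-Mt barcodes of Gy0_7d, 620 against 53.2 in Gy35_7d and 806 against 62.8 in Gy5x7_7d. Its log2 fold change was 2.80 (SE 0.23, adjusted p = 3.88e-15), and it is also the first leading gene of the cluster that held most suprabasal members. Zfp142 measured 42.8 CPM in high-Mt against 2.57 CPM in low-Mt barcodes of Gy0_7d, 43.3 against 2.81 in Gy35_7d and 68.8 against 3.90 in Gy5x7_7d (2.99, SE 0.33, adjusted p = 8.12e-12). Kmt5c (2.85, SE 0.31) and Abca7 (2.74, SE 0.40) followed, Abca7 on 57 UMIs in all suprabasal members. The 4 genes with the largest negative fold changes, Lrcol1, Caly, Cand2 and Gsr, had 1, 3, 2 and 3 UMIs in all suprabasal members, so no size is given for them.

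The genes with the largest positive fold changes in the basal class were Megf6, Col7a1, Myh11 and Ltbp3. Col7a1, the anchoring fibril collagen that ties the epithelium to the stroma, measured 167 CPM in high-Mt against 31.7 CPM in low-Mt basal barcodes of Gy0_7d, 210 against 10.1 in Gy35_7d, 671 against 50.9 in Gy5x7_7d and 375 against 29.9 in Gy5x7_14d. Its log2 fold change was 2.77 (SE 0.24, adjusted p = 1.01e-26). Megf6, a protein with repeated EGF-like domains, was higher by 2.84 (SE 0.32), Ltbp3, a protein that holds latent TGF-beta in the matrix, by 2.21 (SE 0.28), and the smooth muscle myosin Myh11, whose level was highest in mural cells, by 2.25 (SE 0.41). The levels of Col7a1 in each high-Mt sum exceeded those in every low-Mt sum, which its choice by fold change and direction partly fixed. Of the 4 genes with the largest negative fold changes, Cox14, Polr2d and Bloc1s3 had 1, 7 and 2 UMIs in all basal members, and Stfa2, a stefin for which the highest level among low-Mt classes was in neutrophils of Gy35_7d, had 21, all in Gy35_7d.

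Of the 8 basal markers 4 were higher and 1 lower in basal members. Col17a1, a hemidesmosomal collagen, measured 1357 CPM in high-Mt against 258 CPM in low-Mt basal barcodes of Gy0_7d, 1753 against 177 in Gy35_7d, 1685 against 549 in Gy5x7_7d and 1909 against 297 in Gy5x7_14d (1.64, SE 0.28, adjusted p = 1.58e-07). Lamb3, a chain of laminin 332, was higher by 1.72 (SE 0.25, adjusted p = 7.05e-10), and Itgb4, the integrin beta 4 of hemidesmosomes, by 1.21 (SE 0.26, adjusted p = 3.08e-05). Itga6, the partner of Itgb4, was higher by 1.10 (SE 0.27, adjusted p = 0.000305), but without Gy35_7d its value was 0.82 and no longer called. The basal keratins were not called higher. Krt14 had a log2 fold change of -0.84 that was called, but not without Gy35_7d (-0.96), Gy5x7_7d (-0.78) or scaling factors (0.02), and Krt5 was not called (-0.47, adjusted p = 0.306), at 4224 CPM in high-Mt against 2781 CPM in low-Mt barcodes of Gy0_7d, 4301 against 2234 in Gy35_7d, 5956 against 3922 in Gy5x7_7d and 2002 against 3428 in Gy5x7_14d. Tp63, the transcription factor of stratified epithelia, was not called either (0.53, adjusted p = 0.0776), although its plain CPM was higher in the high-Mt barcodes of all 4 libraries. These markers named the class, so their level in it is partly fixed by that choice.

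Of the 11 suprabasal markers 8 were lower and 2 higher in suprabasal members, but 4 and 2 both ways, and the median was -1.18, or -0.13 without scaling factors. Dsg1, a desmosomal cadherin, measured 843 CPM in high-Mt against 238 CPM in low-Mt barcodes of Gy0_7d, 825 against 234 in Gy35_7d and 620 against 147 in Gy5x7_7d (0.86, SE 0.21, adjusted p = 0.000562). Dsg3, another of these cadherins, was higher by 0.71 (SE 0.23, adjusted p = 0.00803), with 0.56 without Gy0_7d and 0.50 without Gy35_7d, neither called. Cnfn (cornifelin, a cornified envelope protein) was lower by -2.12 (SE 0.28, adjusted p = 1.66e-09), Ly6d, a small surface protein of keratinocytes, by -1.90 (SE 0.26), Krt4, the keratin of the suprabasal esophagus, by -1.73 (SE 0.23) and Krtdap, a secreted keratinocyte protein, by -1.70 (SE 0.28). In plain CPM the order of Cnfn depended on the library, at 2043 in high-Mt against 1971 in low-Mt barcodes of Gy0_7d, 793 against 3337 in Gy35_7d and 506 against 1160 in Gy5x7_7d. The other desmosomal genes of the list did not stand with the cadherins. Perp, a membrane protein of desmosomes, was lower by -0.74 (SE 0.24, adjusted p = 0.00947), with -0.88 without Gy0_7d and -0.55 without Gy35_7d, neither called, and 0.31 without scaling factors. Dsp (desmoplakin) was not called (0.26, adjusted p = 0.373).

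Stress genes gave smaller and mixed differences between high-Mt and low-Mt barcodes of the same class. Of the immediate early genes, transcription factors such as Fos and Atf3 that are induced within minutes of many stimuli, 6 of 22 tested were lower and none higher in the suprabasal class, and 2 of 23 lower and 1 higher in the basal class. Over all genes tested 26.1% were lower and 23.6% higher in the suprabasal class, and 19.4% lower and 16.6% higher in the basal class, so the suprabasal share of lower genes is close to the background and the basal share is below it. The list medians were -0.43 and -0.31, but 0.57 and 0.55 without scaling factors, and none of the lower calls held both ways. Among heat shock genes 7 of 13 were lower and 2 higher in the suprabasal class (median -0.64, or 0.39 without scaling factors) and 4 of 13 lower in the basal class (median -0.35, or 0.48). Hspb1, a small chaperone, held both ways in the suprabasal class, at 3751 CPM in high-Mt against 6382 CPM in low-Mt barcodes of Gy0_7d, 1014 against 2273 in Gy35_7d and 834 against 1799 in Gy5x7_7d (-2.06, SE 0.25, adjusted p = 1.89e-10).

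The integrated stress response list had 2 of 15 tested genes higher and 4 lower in the suprabasal class, and 1 of 13 higher and 1 lower in the basal class. The suprabasal share of lower genes is again close to that over all genes (26.1%), and the other shares are below theirs. Slc7a11, the cystine importer, was higher in both, by 1.53 (SE 0.23, adjusted p = 1.04e-07) in suprabasal and 0.97 (SE 0.38, adjusted p = 0.0307) in basal members. The basal call ended without Gy0_7d (0.74), without Gy35_7d (1.14), without Gy5x7_14d (0.85) and with DESeq2 (1.10). In suprabasal barcodes it measured 67.2 CPM in high-Mt against 9.27 CPM in low-Mt barcodes of Gy0_7d, 203 against 34.6 in Gy35_7d and 186 against 36.2 in Gy5x7_7d. The mitophagy list had 1 of 11 genes higher and 3 lower in the suprabasal class and 1 of 10 higher and 2 lower in the basal class, and the shares of lower genes are close to those over all genes, 26.1% and 19.4%. The higher one was Ulk1, the kinase that starts autophagy, at 187 CPM in high-Mt against 28.5 CPM in low-Mt suprabasal barcodes of Gy0_7d, 66.7 against 14.4 in Gy35_7d and 158 against 35.4 in Gy5x7_7d (1.34, SE 0.23, adjusted p = 1.83e-06). In the basal class Ulk1 was higher by 1.26 (SE 0.30, adjusted p = 0.000194).

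Genes of p53 and of cell death did not move one way, and none of their shares of called genes stood clearly above those over all genes (23.6% higher and 26.1% lower in the suprabasal, 16.6% and 19.4% in the basal class). Of the p53 targets 2 of 21 tested were higher and 5 lower in the suprabasal class (median 0.00, or 1.04 without scaling factors) and 1 of 18 higher and 3 lower in the basal class (median -0.18, or 0.65). Bax, which permeabilises the outer mitochondrial membrane in apoptosis, was lower by -1.56 (SE 0.23, adjusted p = 4.28e-08), at 106 CPM in high-Mt against 165 CPM in low-Mt suprabasal barcodes of Gy0_7d, 100 against 147 in Gy35_7d and 109 against 135 in Gy5x7_7d. Of the apoptosis and death list 2 of 20 genes were higher and 5 lower in the suprabasal class and 1 of 19 higher and 4 lower in the basal class, with Bad, a partner of BCL2 proteins, lower by -2.24 and -1.62. The mitochondrial chaperones and proteases were lower in 8 of 14 tested genes with 1 higher in the suprabasal class (median -0.90, or 0.15 without scaling factors), led among the abundant ones by Grpel1 (-2.16) and Hspe1 (-2.08), both co-chaperones of protein import and folding. For the factors that copy and express the mitochondrial genome, 3 of 19 were higher and 4 lower in the suprabasal class, both shares below the background. Tfam, which packages that genome and starts its transcription, was lower by -1.10 (SE 0.29, adjusted p = 0.00104), but was not called without scaling factors (-0.07) or without Gy35_7d (-0.92).

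**Figure D5:**
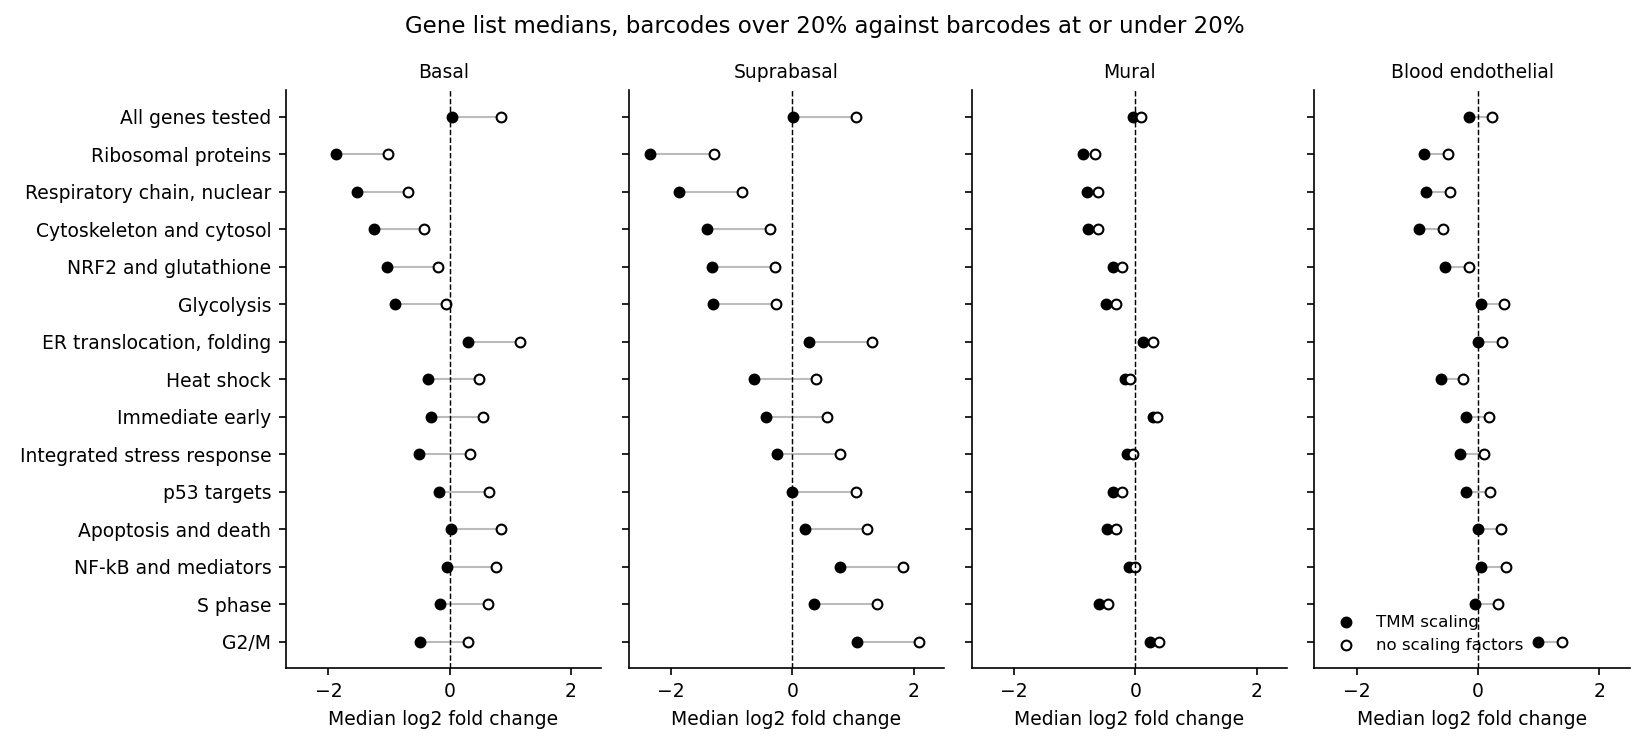
Median log2 fold change of each gene list, high-Mt over low-Mt, in the basal, suprabasal, mural and blood endothelial classes (x axis), with TMM scaling and without scaling factors, for lists with at least 3 genes tested. Ribosomal protein genes lie below 0 in all 4 classes both ways (-2.35 and -1.30 in the suprabasal class), while the immediate early and heat shock lists of both epithelial classes change sign with the scaling.

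Proliferation genes were called mostly higher in suprabasal and only lower in basal members. Of 24 tested genes of the G2 and M phases, 14 were higher and 1 lower in suprabasal high-Mt barcodes (median 1.06), and without Gy35_7d the median was 0.52. In the basal class none was higher and 11 of 25 were lower (median -0.50, or 0.30 without scaling factors, 2 both ways). Top2a, the topoisomerase of dividing cells, measured 16.3 CPM in high-Mt against 3.81 CPM in low-Mt suprabasal barcodes of Gy0_7d, 281 against 28.6 in Gy35_7d and 12.1 against 3.26 in Gy5x7_7d (1.79, SE 0.31, adjusted p = 2.01e-06), and its value without Gy35_7d was 0.96 and not called. Aurkb, a mitotic kinase, was higher by 1.77 (SE 0.40, adjusted p = 0.000211) with or without any 1 library. Ube2c, which works with the anaphase promoting complex, was lower in basal members, at 160 CPM in high-Mt against 257 CPM in low-Mt barcodes of Gy0_7d, 132 against 280 in Gy35_7d, 121 against 221 in Gy5x7_7d and 0 against 246 in Gy5x7_14d (-1.86, SE 0.27, adjusted p = 1.56e-09). Whether the 2 classes differ in this was not tested. The suprabasal members also carried more of the basal markers, 4 of 8 higher and none lower (median 0.53). These were Itga6 (1.14), Col17a1 (0.90), Itgb4 (0.55) and Tp63 (0.51), and none of the 4 was called without Gy35_7d (0.69, 0.75, 0.18 and 0.46 in that order) or without the library block. The S phase list had 4 of 23 genes higher in suprabasal members (median 0.36), a share below that over all genes (23.6%), and its median without Gy35_7d was -0.53.

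Markers of other cell types were higher in epithelial members. All 8 fibroblast markers were higher in suprabasal members (median 1.86) and all 7 tested in basal members (median 1.35). All 15 of these calls rest on the pairing and ended without the library block, with the direction kept. Without Gy35_7d the suprabasal call of Pdgfra (1.92) and the basal calls of Lum (0.85), Dpt (0.80), Pi16 (1.15) and Mfap5 (1.10) also ended, and the basal calls of Pi16 and Mfap5 ended under several other settings. Col1a1, the main fibrillar collagen, measured 424 CPM in high-Mt against 68.0 CPM in low-Mt suprabasal barcodes of Gy0_7d, 157 against 9.86 in Gy35_7d and 40.5 against 4.64 in Gy5x7_7d (2.23, SE 0.26, adjusted p = 4.91e-11), while fibroblasts reached 28152 CPM. Summed over the 8 markers, fibroblast RNA made up 0.344% of nuclear UMIs in epithelial high-Mt against 0.0726% in low-Mt barcodes of Gy0_7d, 0.0750% against 0.00884% in Gy35_7d, 0.0174% against 0.00255% in Gy5x7_7d and 0.379% against 0.0443% in Gy5x7_14d. The levels were higher in the libraries with more fibroblasts, and 2 of the 8 markers were at 0 in the epithelial members of Gy5x7_7d. In suprabasal members 7 of 8 tested blood endothelial markers, 6 of 6 smooth muscle and 6 of 6 pericyte markers were also higher. The part of such RNA in the differences was not tested.

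The list of chemokines and other targets of NF-kB had 4 of 12 genes higher and 1 lower in suprabasal members, and 3 of 12 higher and 1 lower in basal members. Among all genes tested 23.6% were higher and 26.1% lower in the suprabasal class, and 16.6% and 19.4% in the basal class. With 12 genes tested, these counts do not set the list apart from that background. Ccl2, a chemokine for monocytes that was highest in the macrophage class, measured 55.0 CPM in high-Mt against 18.1 CPM in low-Mt suprabasal barcodes of Gy0_7d, 53.3 against 7.30 in Gy35_7d and 0 against 0.0645 in Gy5x7_7d (1.26, SE 0.33, adjusted p = 0.00111), with 0.59 without Gy35_7d and no call.

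Some epithelial calls depended on the fit. Without the library block the suprabasal values of Dsg1 (0.86), Dsg3 (0.71), Cnfn (-1.92), Ly6d (-1.25), Hspb1 (-1.89), Slc7a11 (1.46), Ulk1 (1.34), Top2a (2.22), Col1a1 (1.92), Ccl2 (1.18) and Tfam (-1.02) were not called, nor were the basal values of Itgb4 (1.17), Itga6 (1.08), Myh11 (2.13), Ulk1 (1.22) and Slc7a11 (1.31). At resolution 0.5 the suprabasal calls of Dsg1, Dsg3, Cnfn, Hspb1, Slc7a11, Ulk1, Bax, Top2a, Aurkb, Ccl2 and Tfam ended, with the direction kept.

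An unnamed feature, AC134224.3, chosen after its values were seen, held 4.40% of nuclear UMIs in epithelial high-Mt against 0.671% in low-Mt barcodes of Gy0_7d, 3.81% against 0.464% in Gy35_7d, 4.69% against 1.02% in Gy5x7_7d and 4.89% against 0.667% in Gy5x7_14d. The files give it no gene name, and it was not annotated here.

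Mural cells, the contractile cells of the muscle coats and vessels, had fewer calls, from fewer members: 856 of 5083 genes were called (16.8%), 396 higher (7.79%) and 460 lower (9.05%), among 262 members. This count rests on the pairing by library, and no gene was called by edgeR without that block (1015 had an unadjusted p under 0.05; DESeq2 with the block called 511). Lama5, a laminin chain of basement membranes, measured 479 CPM in high-Mt against 158 CPM in low-Mt mural barcodes of Gy0_7d, 632 against 141 in Gy35_7d, 1120 against 257 in Gy5x7_7d and 843 against 105 in Gy5x7_14d (2.08, SE 0.24, adjusted p = 1.81e-14). Dmd (dystrophin, 1.98), Ogt (the enzyme that adds GlcNAc to intracellular proteins, 1.92) and Mcam (an adhesion molecule of vessel walls, 1.77) followed.

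The mural class joins a pair of clusters. One was led by the smooth muscle genes Myh11, Acta2, Actg2 and Tagln, and the other, named from pericyte markers, by Ccl19, Vtn, Rgs5 and Kcnj8. The smooth muscle cluster held 209 of 262 mural high-Mt barcodes (79.8%) against 1381 of 2467 low-Mt barcodes (56.0%), at 74.6% against 54.3% in Gy0_7d, 71.9% against 49.8% in Gy35_7d, 80.0% against 66.0% in Gy5x7_7d and 87.2% against 55.9% in Gy5x7_14d. A fit within this cluster alone, chosen after seeing the data, called 765 of 3391 genes, 343 higher and 422 lower, and its values are given below as those within the smooth muscle cluster. Lama5 (1.90), Dmd (1.85), Ogt (2.20) and Mcam (1.84) were called there too, and ribosomal protein genes were lower in 62 of 71 (median -0.84).

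The smooth muscle markers of mural members went both ways. Myh11, the smooth muscle myosin heavy chain, measured 6971 CPM in high-Mt against 3572 CPM in low-Mt barcodes of Gy0_7d, 5421 against 1995 in Gy35_7d, 6246 against 3042 in Gy5x7_7d and 7473 against 3328 in Gy5x7_14d (0.97, SE 0.20, adjusted p = 0.000104), and its value within the smooth muscle cluster was 0.62 (adjusted p = 0.0227). Tagln (transgelin), a small actin-binding protein, measured 8707 CPM in high-Mt against 16213 CPM in low-Mt barcodes of Gy0_7d, 7860 against 14099 in Gy35_7d, 9723 against 11176 in Gy5x7_7d and 3374 against 10698 in Gy5x7_14d (-1.10, SE 0.21, adjusted p = 1.34e-05; -0.58 and no call with the AY172581 features of the mitochondrial genome counted). Within the smooth muscle cluster it was -1.30 (adjusted p = 2.97e-06), and Acta2, the smooth muscle actin, which was not called in the whole class (-0.38), was lower by -0.66 (adjusted p = 0.0134). Of the 8 smooth muscle markers 2 were higher and 1 lower, and of the 8 pericyte markers 1 was higher (Cspg4, the proteoglycan NG2, 1.76) and 4 lower, among them Cox4i2 (-1.61), a cytochrome oxidase subunit, and Rgs5 (-1.28), a regulator of G protein signals. Within the smooth muscle cluster Cspg4 (1.70), Cox4i2 (-1.87) and Rgs5 (-2.48) were called in the same direction, whereas Kcnj8, a potassium channel subunit, lay at 0.42 with no call against -0.84 in the whole class. The largest negative fold change was that of the chemokine Ccl19, the first leading gene of the pericyte cluster, which held 20.2% of the high-Mt against 44.0% of the low-Mt barcodes. It stood at 12.96 CPM in high-Mt against 172 CPM in low-Mt barcodes of Gy0_7d, 77.4 against 1117 in Gy35_7d, 295 against 764 in Gy5x7_7d and 11.7 against 161 in Gy5x7_14d (-3.35, SE 0.38, adjusted p = 1.59e-14), on 13 UMIs in all mural members, and was too low to be tested within the smooth muscle cluster. Hikeshi, Mrps24 and Cacybp followed on 7, 11 and 8 UMIs.

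Mural members had immediate early genes on the higher side only, 4 of 21 tested with none lower (median 0.29, or 0.35 without scaling factors). Over all mural genes tested 7.79% were higher and 9.05% lower. Dusp1, a phosphatase that switches off MAP kinases, measured 3459 CPM in high-Mt against 1753 CPM in low-Mt barcodes of Gy0_7d, 478 against 202 in Gy35_7d, 58.9 against 71.8 in Gy5x7_7d and 2647 against 1124 in Gy5x7_14d (1.01, SE 0.23, adjusted p = 0.000466; 0.65 and no call with no filter on low counts). Hk2, the hexokinase bound to the mitochondrial surface, was higher in all 4 libraries, at 505 CPM in high-Mt against 172 CPM in low-Mt barcodes of Gy0_7d, 207 against 65.3 in Gy35_7d, 118 against 17.2 in Gy5x7_7d and 1499 against 220 in Gy5x7_14d (2.04, SE 0.27, adjusted p = 9.89e-11). Of the suprabasal epithelial markers 6 of 8 tested were higher in mural members (median 1.43), and of the fibroblast markers 4 of 7 (median 0.86), and their part was not tested. Within the smooth muscle cluster all 5 fibroblast markers tested were higher, from Col3a1 (1.31) to Lum (1.86), and Dusp1 (0.98) and Hk2 (1.87) were called as well.

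Blood endothelial cells, the lining of vessels, had 451 of 7893 genes called (5.71%), 96 higher (1.22%) and 355 lower (4.5%), from 166 members. Again no gene was called by edgeR without the library block (950 had an unadjusted p under 0.05; DESeq2 with the block called 172), and scaling by RLE factors gave 185 higher and 175 lower. The class joins 3 clusters, and the one led by Selp, Plvap, Sele and Vwf held 75 of 166 high-Mt (45.2%) against 1691 of 5562 low-Mt barcodes (30.4%), at 4.17% against 13.2% in Gy0_7d, 67.3% against 59.2% in Gy35_7d, 45.9% against 52.3% in Gy5x7_7d and 40.0% against 20.1% in Gy5x7_14d. Within that cluster alone, in a fit chosen after seeing the data on the 3 irradiated libraries (Gy0_7d had 1 member there), 207 of 6964 genes were called, 16 higher and 191 lower. Vwf, the von Willebrand factor that is stored in endothelial granules, measured 490 CPM in high-Mt against 247 CPM in low-Mt barcodes of Gy0_7d, 1908 against 321 in Gy35_7d, 524 against 669 in Gy5x7_7d and 2041 against 250 in Gy5x7_14d (1.42, SE 0.24, adjusted p = 1.39e-06). It was the only called gene of the 8 blood endothelial markers, and it was not called without Gy35_7d (0.90) or without Gy5x7_14d (0.81). Within the cluster that it leads its value was 1.25 (adjusted p = 0.0419). Mcam was higher by 1.67 (SE 0.27, adjusted p = 7.49e-07), with 1.12 and no call without Gy35_7d. S100a7l2, whose level was highest in suprabasal keratinocytes (4633 CPM in Gy0_7d), was higher by 2.22 (SE 0.36, adjusted p = 7.47e-07). Cbx7 (2.01) also led, on 24 UMIs, and was not called without Gy35_7d (1.34). With members over 30% set against low-Mt barcodes at or under 10%, 3 genes were called in this class. Of the 7 fibroblast markers tested 2 were higher (list median 0.91), Col3a1 by 1.19 (SE 0.26, adjusted p = 0.000442), with 0.75 and no call without Gy5x7_14d, and Dcn (decorin) by 0.91 (SE 0.30, adjusted p = 0.0463), which was not called without Gy0_7d (0.76), Gy35_7d (0.96) or Gy5x7_14d (0.68). Of the suprabasal markers 2 of 10 and of the basal markers 2 of 5 were higher, and the part of such RNA was not tested. Tmsb4x, the actin-binding thymosin, was lower by -1.35 (SE 0.14, adjusted p = 4.36e-17), at 18360 CPM in high-Mt against 27921 CPM in low-Mt barcodes of Gy0_7d, 7893 against 24487 in Gy35_7d, 19370 against 28658 in Gy5x7_7d and 12450 against 25044 in Gy5x7_14d. The immediate early genes Atf3 (-1.10), Fos (-0.78) and Jun (-0.76) were called lower in the whole class. So were the heat shock genes Dnaja1 (-0.98), Hspa8 (-0.80) and Hsp90ab1 (-0.78). None of these calls held without scaling factors. Within the cluster led by Selp, 4 of 20 immediate early genes tested were lower and none higher (median -0.36). Of the genes with the largest negative fold changes Fmo2, Spryd7 and Cfap36 had no UMI in the members, so no size is given for them.

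The number of different genes seen per barcode was compared after thinning each barcode to 300 nuclear UMIs, which leaves out shallower ones. The median was 244 genes in high-Mt against 218 in low-Mt suprabasal barcodes of Gy0_7d, 247 against 211 in Gy35_7d and 243 against 203 in Gy5x7_7d, after 1, 1 and 30 members had been left out. In basal barcodes it was 245 against 216 in Gy0_7d, 250 against 217 in Gy35_7d, 243 against 202 in Gy5x7_7d and 249.5 against 209 in Gy5x7_14d. In both epithelial classes the nuclear RNA of the members was thus spread over more genes at equal depth. Mural barcodes did not show this, with 217 genes in high-Mt against 227 in low-Mt barcodes of Gy0_7d, 227 against 232 in Gy35_7d, 229 against 226 in Gy5x7_7d and 234 in both kinds of Gy5x7_14d, and blood endothelial barcodes had 241.5 against 235, 249 against 241, 241.5 against 232 and 247 against 239 in the same order of libraries. For comparison, the unthinned medians of nuclear UMIs in the basal barcodes were 1386 against 11782, 1030.5 against 17494, 523 against 4840 and 905 against 12787.

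The treatments were compared within the epithelial members against the unirradiated library, with the low-Mt barcodes beside them. Since all 3 irradiated libraries share that 1 control, their values are not independent, and a list is described by how many of its genes lay at or past 2-fold. The immediate early genes were lower in the members of both day 7 irradiated libraries, as in the low-Mt barcodes. In suprabasal members 17 of 20 measured genes were at least 2-fold lower in Gy35_7d than in Gy0_7d (8.14% of all measured genes were), 18 of 20 in Gy5x7_7d (10.6%) and none in Gy5x7_14d (10.3%), where 5 of 20 were at least 2-fold higher (28.8%). In low-Mt suprabasal barcodes 24 of 26 were lower in Gy35_7d (8.65%) and 24 of 26 in Gy5x7_7d (11.5%), and 2 of 26 were at least 2-fold higher in Gy5x7_14d (9.61%). The summed level of the list in suprabasal members was 24194 CPM in Gy0_7d (95% exact Poisson interval 23761 to 24633), 4466 in Gy35_7d (4347 to 4587), 1341 in Gy5x7_7d (1200 to 1493) and 46104 in Gy5x7_14d (41764 to 50772, from 9 barcodes). The low-Mt suprabasal barcodes had 21827, 2405, 740 and 20320 CPM in the same order.

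Basal members gave the same order of libraries, with 24961 CPM in Gy0_7d (24134 to 25810), 4433 in Gy35_7d (4231 to 4642), 1061 in Gy5x7_7d (902 to 1240) and 39518 in Gy5x7_14d (37368 to 41759). At least 2-fold lower than in Gy0_7d were 15 of 18 genes in the basal members of Gy35_7d (7.54% of all measured genes) and 16 of 17 in those of Gy5x7_7d (14.2%), and 6 of 19 were at least 2-fold higher in Gy5x7_14d (11.4%). In low-Mt basal barcodes 26 of 27 were lower in Gy35_7d (11.7%) and 26 of 26 in Gy5x7_7d (11.8%), and 3 of 27 were higher in Gy5x7_14d (4.77%). The low-Mt basal barcodes had 26852, 2201, 535 and 25190 CPM. In the irradiated libraries, the level in the members lay above that in the low-Mt barcodes of the same class, and in Gy0_7d it lay above it in the suprabasal and below it in the basal class. These are plain CPM, in which most genes stood higher in the members. Without scaling factors the median log2 fold change of all genes tested was 1.05 in the suprabasal and 0.85 in the basal class. With TMM scaling the medians of the immediate early list, given above, were negative in both classes. The heat shock list in suprabasal members measured 14127 CPM in Gy0_7d, 5952 in Gy35_7d, 3499 in Gy5x7_7d and 19201 in Gy5x7_14d, and the low-Mt barcodes had 16877, 6885, 4402 and 15500.

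The G2 and M phase genes were high in the suprabasal members of Gy35_7d. They summed to 369 CPM in Gy0_7d (317 to 427), 1962 in Gy35_7d (1884 to 2043), 275 in Gy5x7_7d (214 to 349) and 558 in Gy5x7_14d (181 to 1303). In Gy35_7d 21 of 23 measured genes were at least 2-fold higher than in Gy0_7d, where 14.7% of all measured genes were. The low-Mt suprabasal barcodes had 266, 349, 110 and 232 CPM, with 21 of 24 genes at least 2-fold higher in Gy35_7d (6.21% of all). Both kinds of barcode thus differed from the control in the same direction, and the summed level in the members of Gy35_7d was the highest of the 8 suprabasal values. In basal members these genes leaned the other way, with 9 of 23 at least 2-fold lower than in Gy0_7d in Gy35_7d (7.54%), 13 of 20 in Gy5x7_7d (14.2%) and 14 of 17 in Gy5x7_14d (18.6%). In low-Mt basal barcodes 5 of 25 were lower in Gy35_7d (11.7%), where none was higher (9.41%), 7 of 25 in Gy5x7_7d (11.8%) and 1 of 25 in Gy5x7_14d (4.54%).

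The ribosomal protein genes, by contrast, were further apart between high-Mt and low-Mt barcodes than between treatments, with 92507, 139596, 127664 and 75798 CPM in suprabasal members of Gy0_7d, Gy35_7d, Gy5x7_7d and Gy5x7_14d, and 277648, 290256, 337061 and 324935 CPM in low-Mt barcodes.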

How the data were processed

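Single-cell libraries of the rat esophagus, 1 pool of 5 animals per treatment, were made with the Chromium 3' kit v3.1, per the labels' protocols. The authors deposited raw UMI counts per feature and barcode, made with Cell Ranger 5.0.0 on mRatBN7.2 (rn7), per the submitters' processing notes; no release of the gene annotation is named there. Depth is given per barcode in the report and limits what a shallow barcode can show.

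Features were summed by symbol (32623 to 30017). The 24 AY172581 features, from a GenBank record of the mitochondrial genome, are outside the Mt- rule and were left out of nuclear UMIs. Doublets were called per library with Scrublet (scanpy 1.11.5; 0.8% expected per 1000 barcodes) and left out. Barcodes were clustered on nuclear UMIs (2000 variable genes, 30 components, 15 neighbours, leidenalg 0.10.2 at resolution 1, 36 clusters). A cluster was named where the score of a class passed 0.75 and led by 0.25 with at least 3 markers 1.5-fold higher; this fold and these limits were set after the data were seen. Barcodes under 200 nuclear UMIs got no class. Sums of at least 30 barcodes (20 for mural and blood endothelial cells) were tested with edgeR 4.0.16 (R 4.3.3) in quasi-likelihood fits with the library as a block, TMM factors and an adjusted p threshold of 0.05; DESeq2 1.42.0 was an alternative. Both arms of a library come from the same 5 animals, which is what the pairing rests on. The p-values set a difference against the spread between these pairs, 3 in the suprabasal fit and 4 in the others. That spread was moderated over genes. Steps were tested on simulated data.

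Members and lists were chosen with earlier results of these data known; basal and suprabasal cells apart, the minimum of 20, fits with no scaling factors, AY172581 counted and 1 cluster of a class alone were added after the data were seen. Named genes are the 4 with the largest fold change each way, with at least 50 UMIs in each library and 1 direction in all of them, up to 3 called genes per list, and class markers; some genes that this rule names are not reported here. Of 597 list symbols 37 had no feature. Antisense and duplicated genes were not separated. Library pairs shared 26 to 38 barcode sequences, at most 1 of them high-Mt in both.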

Additional observations from a re-analysis of the deposited data

Results flagged for a closer look

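The 24 features of the rat mitochondrial genome record AY172581 were not part of the rule or of the main comparisons, and were counted as mitochondrial only as an alternative. AY172581.24 and AY172581.9 held nearly all of their UMIs, at 62.7% and 37.3% in high-Mt barcodes of Gy0_7d. The level of the 24 features differed between libraries. In high-Mt barcodes there were 0.179 AY172581 UMIs per UMI in Mt- genes in Gy35_7d, 0.323 in Gy5x7_7d and 0.945 in Gy5x7_14d, against 0.134 in the unirradiated Gy0_7d. In low-Mt barcodes the ratio was 0.146 in Gy35_7d, 0.265 in Gy5x7_7d and 0.755 in Gy5x7_14d, against 0.119 in Gy0_7d. These 6 values are given because they lie above the control library. Each is 1 library against 1 library with no replicate check, and the order of the libraries was the same in both kinds of barcode. Counting these features as mitochondrial put the share of barcodes over 20% at 6.40% in Gy0_7d, 16.4% in Gy35_7d, 18.8% in Gy5x7_7d and 9.32% in Gy5x7_14d.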

How the results depend on the processing

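All treatments were single pools, so only the differences between high-Mt and low-Mt barcodes of a library had replicate pairs, and depth limited the members under 200 nuclear UMIs. Over 5555 alternatives for 365 gene results, 4664 kept direction and call, 800 lost the call, 70 gained it and 21 changed direction; of 493 alternatives for 85 list medians 387 moved by less than the spread, 104 moved and 2 changed direction. The cause was not tested where none is named.

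The pairing by library was part of the fits. With no replicate block, edgeR called 2879 genes in the epithelial class taken whole, against 5385 with it, 1196 in the basal, 2446 in the suprabasal and none in the mural and blood endothelial classes, 0 each. DESeq2 called 2050 basal, 511 mural and 172 blood endothelial genes. Leaving out 1 library in turn gave 3494 to 5715 genes in the whole epithelial class, 1324 to 2893 in the basal, 3069 to 5292 in the suprabasal, 348 to 1007 in the mural and 221 to 497 in the blood endothelial class. Leaving out Gy35_7d gave 3494, 1324, 3069, 382 and 229 in that order, and leaving out Gy5x7_14d gave 348 mural and 221 blood endothelial genes. With members over 30% against low-Mt barcodes at or under 10%, 425 mural and 3 blood endothelial genes were called, and 883 blood endothelial genes with AY172581 features counted, an alternative chosen after seeing the data. Within the cluster with most members 207 blood endothelial genes were called, on 3 libraries, and the mural values of Ccl2 (0.54), Cxcl1 (0.16) and Kcnj8 (0.42) changed sign. At resolution 0.5 the suprabasal count was 788, where the cluster with most of its members was merged into an unnamed one.

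The share of barcodes over the threshold in Gy0_7d, Gy35_7d, Gy5x7_7d and Gy5x7_14d was 8.21%, 17.7%, 18.6% and 5.49% at 15%, then 4.36%, 13.6%, 15.4% and 2.29% at 25%, and 3.82%, 12.5%, 14.4% and 1.40% at 30%. With AY172581 counted it was 6.40%, 16.4%, 18.8% and 9.32%, and with at least 1000 UMIs 11.4% in Gy5x7_7d. The epithelial share over 20% was 3.96%, 9.17% and 4.44% in the day 7 libraries at resolution 0.5, and by multinomial likelihood 11.7% in Gy0_7d, 9.58% in Gy5x7_7d and 2.31% in Gy5x7_14d.

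Without scaling factors the suprabasal medians of the mitochondrial chaperones (0.15, against -0.90) and of heat shock genes (0.39, against -0.64) changed sign, as did Fundc1 (0.034), Krt5 (0.030), Krt15 (0.18) and Krt13 (0.052) in the whole epithelial class, Atf4 (0.20), Krt14 (0.020) and Krt13 (0.10) in the basal class, and Bnip3 (0.091), Ddit4 (0.10), Ddit3 (0.36), Jund (0.19), Tgm3 (0.021) and Perp (0.31) in the suprabasal class. At resolution 0.5 Gdf15 (-0.094), Mdm2 (-0.36) and Dsp (-0.16) in the whole epithelial class and Ddit3 (0.12) in the suprabasal class did, and Fen1 in the suprabasal class lay at -0.070 without Gy35_7d and at 1.695 without Gy0_7d, the range over left-out libraries. The whole epithelial class had 2694 genes higher and 2691 lower, or 5487 and 934 without scaling factors, which moved the median of its genes to 0.89; mural cells had 612 and 331, and blood endothelial cells 304 and 40. With cluster 16 counted as epithelial, also chosen after seeing the data, 5485 epithelial genes were called.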
